A study of Mus musculus with 6 samples.

Results

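Genes of autophagy and the lysosome were read from microarrays of mouse hearts after tail-suspension, which lifts the hindlimbs off the floor to simulate weightlessness. The genes were listed by name and no value entered that rule, but earlier results of these data were known. Each gene was read from its brightest probe, the probe with the highest mean log2 intensity over the 6 arrays. The group has 42 members, of which 41 were found under the given name among 28909 gene names on the array. The remaining member, Tfeb, was found under its older name Tcfeb and is given beside the others without entering the counts. Of the 41, 40 were tested, as their probes stood well above background on all arrays of a group. Atg4a was not well above background on any array, so no fold change is given for it.

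Total RNA was taken from the cardiac muscle of male C57BL/6 mice, 3 sham mice and 3 mice after 28 days of tail-suspension. The sham mice were kept in the same space and fed alike without suspension, and the labels name no transgene or drug in either group. The labels put the mice at 10 weeks when suspension began and at 11 weeks in the age field, so the age at sampling is not settled. Each mouse gave 1 array, and all 6 arrays lay on 1 slide read in 1 scan. The 3 sham arrays and tail-suspension 1 lay in the first row of the slide, and tail-suspension 2 and 3 lay in the second row. Tail-suspension unloads the hindlimbs of a ground-living mouse and is a model of weightlessness, not weightlessness itself.

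Autophagy wraps cytoplasm, protein aggregates or mitochondria in a double membrane and delivers them to the lysosome for breakdown. The ULK1 kinase complex starts the process, a phosphatidylinositol 3-kinase complex marks the growing membrane, and a ubiquitin-like conjugation system attaches proteins of the ATG8 family (LC3 and GABARAP) to it. Cargo receptors link the cargo to ATG8 proteins, and lysosomal proteases digest what arrives. In the heart, autophagy clears damaged mitochondria and is known to respond to changes in load and nutrition. The arrays measured transcripts, not proteins or the rate of autophagy.

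Probes behind the largest rises and probes of Gabarap and Lamp2, whose probes gave unlike results, are shown first, because each value below is the value of a 60-base probe. The first 30 bases of each probe shown are printed, 5′ to 3′, with the position of the whole probe on mm9 as the array's files give it and the base of the transcript at which the probe starts. No genome annotation of this build was used here, so exons and untranslated regions are not named. The probes of Bnip3 (first 3 lines) lay close together on the minus strand, at chr7:146082760-146082819, chr7:146082640-146082699 and chr7:146082536-146082595, from bases 1455, 1575 and 1679 of the same transcript.
Bnip3 probe 1: ccattaatcaggatccaaagctgcttaaat
Bnip3 probe 2: ctgtcccacacttaactcaggtgtgctaaa
Bnip3 probe 3: ggagcaagatcctacaggatgtaatagtca

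The 3 probes of Gabarap lay on the plus strand at chr11:69808343-69808402, chr11:69806095-69806154 and chr11:69804812-69804871. The first and second were designed on the RefSeq transcript, from bases 1013 and 523, and the third on an Ensembl transcript, from base 167.
Gabarap probe 1: aatcccttcctttcactatcttctttttgg
Gabarap probe 2: tacttcttgatccggaagcgaattcatctc
Gabarap probe 3: taatttccgagaactgcagaactaaatctc

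Lamp2 had a brighter probe, designed on transcript variant 2, and a second at chrX:35777505-35777564 on the minus strand, from base 1139 of transcript variant 1. The second is printed.
Lamp2 probe 2: ctgggaagttcttatatgtgcaacaaagag

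Gabarapl1 (chr6:129492254-129492313, plus), Ctsl (chr13:64465287-64465346, minus), Sqstm1 (chr11:50015985-50016044, minus) and Atg13 (chr2:91514791-91514850, minus) had 1 tested probe each.
Gabarapl1: caatctgtacgtctgttttgtcagcttcag
Ctsl: accaaacccttattgagtcaaaccatggta
Sqstm1: tgtcttcaaaagaagtggacccatctacag
Atg13: gctttgttgggaaatgagagctacacctgg

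Autophagy and lysosome transcripts changed in both directions after tail-suspension. Of the 40 tested members, 7 rose (Bnip3, Ctsl, Sqstm1, Gabarapl1, Atg13, Gabarap and Uvrag) and 3 fell (Wipi1, Atg5 and Atg4c) at an adjusted p under 0.05 by limma with Benjamini-Hochberg adjustment over all tested probes. These 10 members make 25% of the members tested, beside 21.2% of all 17137 gene names tested and 20.4% of the 28032 tested probes. The 7 rises make 17.5% beside 10.6% of all genes, and the 3 falls make 7.5% beside 10.5%. The median log2 fold change was 0.12 over the members and -0.01 over all genes tested. Nothing particular to autophagy is read from these shares. Leaving out 1 array at a time left 2 to 8 members higher and 0 to 1 lower, with the fewest rises (Bnip3 and Gabarapl1) without sham 2. Over all probes these fits called 965 to 2932 higher and 726 to 2580 lower, beside 3023 and 2683 with all arrays. The fewest, 965 higher and 726 lower of 28243, were also without sham 2.

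The groups did not overlap for 22 of the 40 members (55%), 15 higher and 7 lower, beside 46.5% of all genes (22.3% higher and 24.2% lower). Only tail-suspension 1 shared a row with the sham arrays. With slide row as a block, 0 of 40 members passed by limma, and 6 were higher and 2 lower at an unadjusted p under 0.05. Over all 28032 tested probes, 320 were higher and 177 lower past the adjusted threshold with this block. The second row held tail-suspension arrays only, so the part of the row in the remaining difference was not tested. In a piece of heart, fewer cells of a type and less RNA per cell cannot be told apart.

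**Figure D1:**
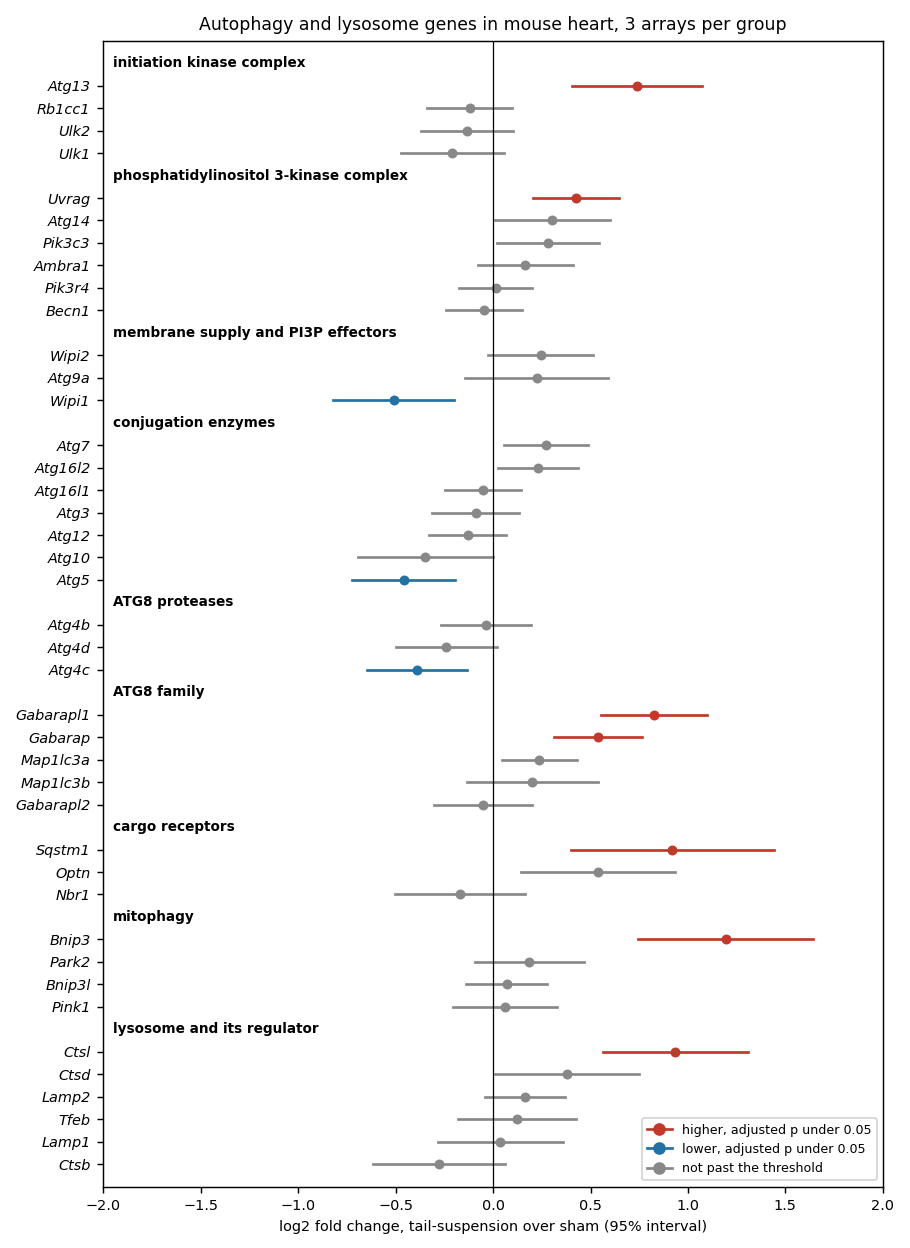
The log2 fold change of tail-suspension over sham (horizontal axis, points) with its 95% interval (lines) for the 40 tested members and Tfeb, grouped by role, n = 3 arrays per group. Bnip3 lies farthest to the right at 1.19, and Wipi1 farthest to the left at -0.51.

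Among the genes of mitophagy, which removes mitochondria, Bnip3 rose 2.29-fold, the largest change of all members, while Bnip3l, Pink1 and Park2 did not pass the threshold. BNIP3 is a mitochondrial outer membrane receptor that binds ATG8 proteins and is known as a hypoxia-responsive gene. Levels here are log2 intensities relative to the 75th percentile of the array, so a level of 0 is the intensity of that percentile. Bnip3 had log2 levels of 6.65, 6.64 and 6.30 in sham hearts and 7.41, 8.07 and 7.68 after suspension. All 3 suspended hearts lay above all 3 sham hearts. The log2 fold change was 1.19 (SE 0.19, adjusted p = 0.0107 by limma). Against the sham mean, tail-suspension 1, in the same row of the slide, was higher by 0.88 on the log2 scale.

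The rise of Bnip3 was seen with each of its 3 probes printed above. The second probe went from 5.66, 5.53 and 5.07 on the sham arrays to 6.30, 7.08 and 6.68 after tail-suspension, a log2 fold change of 1.27 (SE 0.24, adjusted p = 0.0166 by limma). The third probe went from -0.51, -0.68 and -0.99 to 0.28, 1.30 and 0.62, a log2 fold change of 1.46 (SE 0.27, adjusted p = 0.0157). With every probe, tail-suspension 2 was the highest array. The probes read the same 6 RNA samples and are no further replicates.

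Bnip3l encodes NIX, the closest relative of BNIP3. Its brightest probe read 4.02, 4.13 and 4.04 in sham hearts and 4.05, 4.21 and 4.15 in suspended hearts. The groups overlapped, and the log2 fold change of 0.07 had a 95% interval from -0.14 to 0.28. Its other 3 probes gave log2 fold changes of 0.03, 0.16 and 0.06, all short of the threshold. Pink1 encodes the kinase that marks damaged mitochondria, and Park2 the ubiquitin ligase Parkin that it recruits. Pink1 read 6.75, 6.61 and 6.61 against 6.58, 6.91 and 6.66 after tail-suspension, a log2 fold change of 0.06 (95% interval -0.21 to 0.33). Park2 read 1.21, 1.16 and 0.96 against 1.17, 1.47 and 1.25, a log2 fold change of 0.19 (95% interval -0.09 to 0.47). Both pairs of groups overlapped, and the second probe of Park2 gave the opposite sign, -0.07. The difference in response between Bnip3 and the other mitophagy genes was not tested.

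Since Bnip3 moved most, its promoter window was read from RefSeq (GRCm38.p6). The 250 bases before its annotated start, chr7:138909507-138909756 on the minus strand, are printed 5′ to 3′ with the letters CACGTG, an E-box, in capitals. This sequence lay 108 bases before the start.
Bnip3 promoter: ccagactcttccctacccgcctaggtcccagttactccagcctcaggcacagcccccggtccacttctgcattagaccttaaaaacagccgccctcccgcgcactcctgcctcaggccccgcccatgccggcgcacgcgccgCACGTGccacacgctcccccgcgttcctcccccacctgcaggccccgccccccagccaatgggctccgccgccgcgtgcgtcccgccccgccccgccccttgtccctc

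CACGTG, which reads the same on both strands, was found in 7.15% of 32851 RefSeq promoter windows of this kind. It was found in 8 of the 33 members that had a window: Atg14, Atg3, Atg5, Atg7, Bnip3, Ctsd, Ctsl and Lamp1. Of the 7 members that rose, 2 held it, and of the 3 that fell, 1 did. The longer sequence TCACGTGA, which contains CACGTG and is the core of the element bound by TFEB, was in 0.97% of all windows and in 2 members, Atg3 and Ctsd. The letters GTAAACA, bound by FOXO factors and searched on both strands, were in 3.65% of all windows and in 0 members. A match describes letters only, and a window without one says nothing about the factor.

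Of the 5 genes of the ATG8 family, Gabarapl1 and Gabarap rose (40% beside 10.6% of all genes). Both Map1lc3 genes and Gabarapl2 did not pass the threshold. ATG8 proteins sit on the autophagosome membrane and bind the cargo receptors. Gabarapl1 had log2 levels of 6.33, 6.21 and 6.16 in sham hearts and 6.87, 7.16 and 7.15 after suspension. The groups were well apart, and the gene rose 1.77-fold (log2 fold change 0.83, SE 0.11, adjusted p = 0.00723 by limma), the smallest adjusted p of all members. Within the first row of the slide the difference was 0.63.

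Gabarap, read from its brightest probe, had log2 levels of 5.81, 5.63 and 5.59 in sham hearts and 6.19, 6.17 and 6.28 after tail-suspension. It rose 1.45-fold (log2 fold change 0.54, SE 0.09, adjusted p = 0.0142 by limma), with a difference of 0.52 within the first row. This call belongs to that probe, and of the other probes only the second, also designed on the RefSeq transcript, had the same sign. The second probe went from 4.75, 4.74 and 4.44 to 4.88, 4.88 and 4.97, a log2 fold change of 0.27 that did not pass (adjusted p = 0.128). The third probe went the other way, from -3.04, -3.13 and -3.53 to -3.77, -4.37 and -4.02, a log2 fold change of -0.82 (adjusted p = 0.0316 by limma). It was dim, with intensities of 18.26 to 39.11 against 14540 to 29100 for the first probe. It was well above background on only 2 of the 3 tail-suspension arrays. Its printed bases occur in the 250 bases before the annotated RefSeq start of Gabarap (GRCm38.p6). What this probe binds was not tested. The mean of the 3 probes, each counted alike, did not pass (log2 fold change -0.0023, adjusted p = 0.99 by limma).

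Map1lc3a and Map1lc3b encode the LC3 proteins by which autophagosomes are usually followed. Map1lc3a had log2 levels of 5.97, 5.92 and 5.88 in sham hearts and 6.22, 6.13 and 6.14 in suspended hearts. Its groups did not overlap, but the log2 fold change of 0.24 did not pass (95% interval 0.04 to 0.43, adjusted p = 0.0821). Map1lc3b read 5.55, 5.42 and 5.30 against 5.44, 5.89 and 5.53, with tail-suspension 1 and 3 inside the sham range. Its log2 fold change was 0.20 (95% interval -0.14 to 0.54). Gabarapl2, known as GATE-16, had a log2 fold change of -0.05 (95% interval -0.30 to 0.20).

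The ATG4 proteases trim ATG8 proteins before conjugation and release them from membranes. All 3 tested ATG4 genes had log2 fold changes below 0, and only Atg4c passed the threshold (33.3% lower beside 10.5% of all genes). Atg4c had log2 levels of -0.66, -0.53 and -0.75 in sham hearts and -1.18, -0.94 and -0.97 after tail-suspension. It was 1.31-fold lower (log2 fold change -0.39, SE 0.11, adjusted p = 0.0477 by limma), with a difference of -0.54 within the first row. Its second probe gave nearly the same fold change, -0.38, without passing (adjusted p = 0.083). Atg4d (-0.24) had groups that did not overlap, and Atg4b (-0.04) had groups that did.

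**Figure D2:**
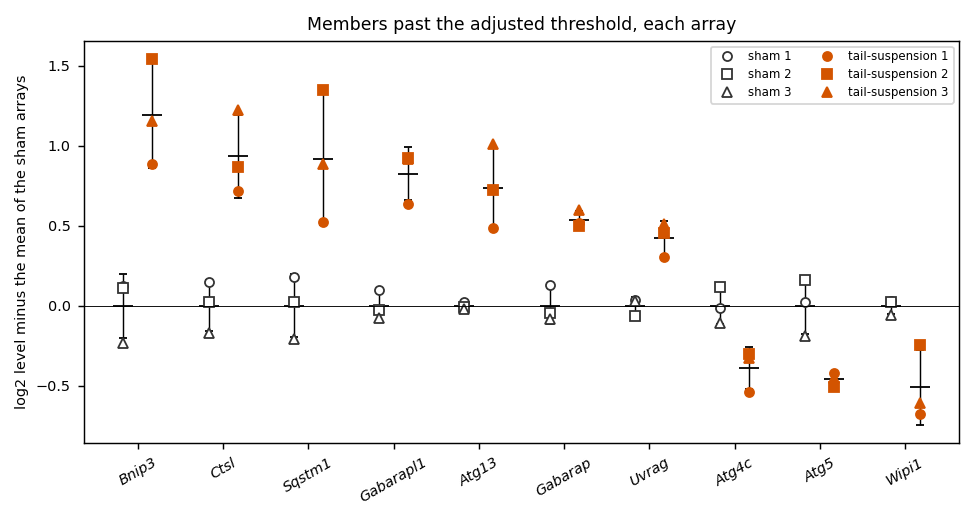
The log2 level of each array minus the mean of the sham arrays (vertical axis) for the 10 members past the adjusted threshold, with open symbols for the sham arrays, filled symbols for the tail-suspension arrays, and bars for the mean ± SD of 3 arrays. In each gene the filled symbols lie apart from the open ones, with tail-suspension 1 at 0.88 for Bnip3 and at -0.68 for Wipi1.

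Cargo receptors carry ubiquitin-bound or damaged material to the ATG8 proteins. Sqstm1, which encodes p62, rose 1.89-fold. Its log2 levels were 3.50, 3.34 and 3.11 in sham hearts and 3.84, 4.66 and 4.2 after suspension. The groups did not overlap, and the suspended hearts were spread more widely (SD 0.41) than the sham hearts (SD 0.20). The log2 fold change was 0.92 (SE 0.22, adjusted p = 0.0321 by limma), and it was 0.52 within the first row of the slide. Sqstm1 transcript levels say nothing of the p62 protein, which autophagy itself degrades.

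Optn encodes optineurin, a receptor in mitophagy and in the clearance of bacteria. It had a log2 fold change of 0.54 and groups that did not overlap, 1.26, 1.13 and 0.69 against 1.69, 1.42 and 1.59, but its adjusted p of 0.0634 missed the threshold. Nbr1, a receptor related to p62, had a log2 fold change of -0.17 (95% interval -0.50 to 0.16) and overlapping groups.

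In the initiation complex, the scaffold gene Atg13 rose and the kinase genes did not pass. Atg13 had log2 levels of 3.97, 3.94 and 3.92 in sham hearts and 4.43, 4.66 and 4.95 after tail-suspension. The sham hearts lay within a narrow range and all suspended hearts above it, a 1.67-fold rise (log2 fold change 0.74, SE 0.14, adjusted p = 0.0175 by limma). Within the first row the difference was 0.48. Ulk1, the initiating kinase, read 5.36, 5.12 and 5.01 against 4.93, 4.97 and 4.97, groups that did not overlap. Its log2 fold change of -0.21 did not pass (95% interval -0.47 to 0.05). Ulk2 had a log2 fold change of -0.13. Rb1cc1, which encodes the scaffold FIP200, gave -0.12 with its brighter probe and 0.16 with its other probe, neither past the threshold.

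The phosphatidylinositol 3-kinase complex is built of the lipid kinase VPS34 (Pik3c3), its regulatory subunit (Pik3r4) and Beclin 1 (Becn1), with either ATG14 or UVRAG. Uvrag, whose product directs the complex to endosomes and maturing autophagosomes, was the only one of these 6 genes past the threshold. Its rise makes 16.7% of these genes beside 10.6% of all genes. Its log2 levels were 2.45, 2.35 and 2.45 in sham hearts and 2.73, 2.88 and 2.93 in suspended hearts. No array of one group reached the other, and Uvrag rose 1.34-fold (log2 fold change 0.43, SE 0.09, adjusted p = 0.0255 by limma). Within the first row the difference was 0.31.

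Becn1, often measured as a marker of autophagy, read 0.91, 0.87 and 0.83 in sham and 0.89, 0.82 and 0.77 in tail-suspended hearts. The groups overlapped, with a log2 fold change of -0.05 and a 95% interval from -0.24 to 0.15. Atg14 (0.30) and Pik3c3 (0.28) had fitted log2 fold changes above 0 and groups that did not overlap, with adjusted p of 0.122 and 0.113. Ambra1, a regulator of Beclin 1, had 0.17, and Pik3r4 had 0.01.

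WIPI proteins bind the lipid made by that complex, and ATG9 vesicles bring membrane. Wipi1 fell and Wipi2 and Atg9a did not pass. Wipi1 had log2 levels of 3.40, 3.39 and 3.31 in sham hearts and 2.69, 3.12 and 2.76 after suspension. All suspended hearts lay below all sham hearts, with tail-suspension 2 closest to them. Wipi1 was 1.42-fold lower (log2 fold change -0.51, SE 0.13, adjusted p = 0.0387 by limma). Within the first row the difference was -0.68, and the second probe gave -0.49 (adjusted p = 0.0368). Wipi2 had a log2 fold change of 0.24 with groups that did not overlap, and Atg9a had 0.22.

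The conjugation enzymes join ATG12 to ATG5 and attach ATG8 proteins to lipid. Of these 7 genes, Atg5 fell (14.3% beside 10.5% of all genes) and none rose. Atg5 had log2 levels of 2.26, 2.39 and 2.05 in sham hearts and 1.81, 1.73 and 1.78 after tail-suspension. The suspended hearts lay close together below all sham hearts, a level 1.37-fold lower (log2 fold change -0.46, SE 0.11, adjusted p = 0.0335 by limma). Within the first row the difference was -0.42. The other 6 genes had log2 fold changes from -0.35 (Atg10) to 0.27 (Atg7). Of these, Atg7, the E1-like enzyme, and Atg16l2 lay above the sham arrays on all suspended arrays, and Atg10, an E2-like enzyme, and Atg12 lay below them. Atg3 and Atg16l1 had overlapping groups.

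Of the lysosomal members, Ctsl rose and the genes of the other cathepsins and of the LAMP proteins did not pass with their brightest probes. Ctsl encodes cathepsin L, a lysosomal cysteine protease. Its log2 levels were 5.53, 5.40 and 5.21 in sham hearts and 6.10, 6.25 and 6.60 in suspended hearts. The groups did not overlap, and the gene rose 1.91-fold (log2 fold change 0.93, SE 0.16, adjusted p = 0.0123 by limma). Within the first row the difference was 0.72.

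Ctsd encodes the aspartic protease cathepsin D and read 7.41, 7.27 and 7.05 in sham against 7.71, 7.35 and 7.80 in tail-suspended hearts. The groups overlapped through tail-suspension 2, and the log2 fold change of 0.38 did not pass (95% interval 0.01 to 0.75, adjusted p = 0.125). Ctsb, the gene of the cysteine protease cathepsin B, read 6.29, 6.05 and 6.06 against 5.87, 5.62 and 6.08. Its log2 fold change was -0.28 (95% interval -0.62 to 0.06), so the fitted values of the 3 cathepsin genes did not share 1 direction.

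Lamp1 and Lamp2 encode the most abundant proteins of the lysosomal membrane. Lamp1 read 7.41, 7.28 and 7.14 against 7.40, 7.07 and 7.46 after tail-suspension, with overlapping groups and a log2 fold change of 0.04 (95% interval -0.28 to 0.36). Lamp2 read 4.16, 4.22 and 4.04 against 4.31, 4.27 and 4.32 with its brighter probe, which was designed on transcript variant 2. Those groups did not overlap, but the log2 fold change of 0.16 did not pass (adjusted p = 0.215).

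The second Lamp2 probe, designed on transcript variant 1, gave another result. It read 2.08, 2.15 and 2.01 in sham hearts and 2.58, 2.47 and 2.75 after suspension. This probe rose 1.43-fold (log2 fold change 0.52, SE 0.10, adjusted p = 0.0196 by limma). Array by array, the log2 difference of the second from the first probe was -2.08, -2.07 and -2.02 in sham and -1.74, -1.80 and -1.58 in tail-suspended hearts. This difference moved by 0.35 on the log2 scale, with an exact two-sided permutation p of 0.1 (adjusted p = 0.1 over the 3 probe pairs compared). That is the smallest p that 3 arrays against 3 allow, so the test cannot show an unequal change. LAMP2 is known for isoforms that differ in their membrane end, and which transcripts each probe binds was not tested.

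Tfeb, the transcription factor known for driving lysosomal and autophagy genes, read 0.92, 0.91 and 0.77 in sham and 1.20, 0.77 and 1.01 in tail-suspended hearts. The groups overlapped, with a log2 fold change of 0.12 (SE 0.13, 95% interval -0.18 to 0.43).

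**Figure D3:**
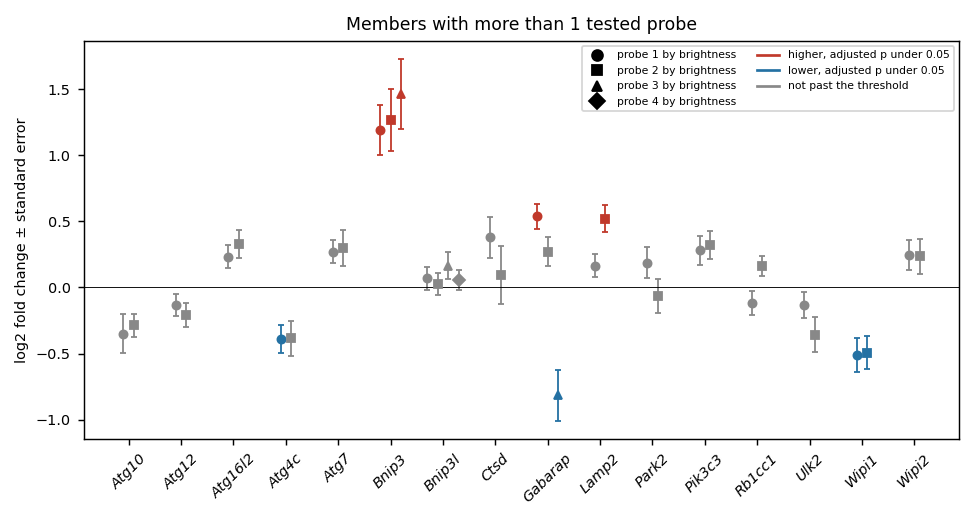
The log2 fold change ± standard error (vertical axis) of each tested probe of the 16 members with more than 1, ordered by brightness within a gene. The 3 probes of Bnip3 lie between 1.19 and 1.46, while the third probe of Gabarap lies at -0.82, opposite to the first at 0.54.

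In all, 16 members had more than 1 tested probe, and 17 of their 20 other probes had the sign of the brightest one. The 3 exceptions were those of Gabarap, Rb1cc1 and Park2 described above.

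Markers of the cells a heart sample holds were read from the same arrays, with each list's summed level given on the linear scale relative to the 75th percentile. All 8 cardiomyocyte markers were well above background on all arrays, and their sum was 3242 to 3475 in sham and 3121 to 3476 in tail-suspended hearts. Of the 8, 1 fell (Actc1, log2 fold change -0.33) and none rose, 12.5% lower beside 10.5% of all genes. Groups did not overlap for 4 of the 8, all lower, beside 24.2% of all genes lower without overlap. Nppa had a log2 fold change of 1.45 that did not pass. Macrophage markers had a sum of 31.4 to 41.8 in sham hearts and of 45.9, 35.9 and 56.5 on tail-suspension 1, 2 and 3. Of the 7 tested, 0 passed the threshold, and their median log2 fold change was 0.60. Cd68 was not well above background on every array of either group.

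Of the 6 neutrophil markers 4 rose (66.7% beside 10.6% of all genes): S100a8, S100a9, Mpo and Retnlg. S100a9 went from -0.49, -0.71 and -1.15 to 5.22, 2.61 and 3.67 on the log2 scale. No sham array had Mpo or Retnlg well above background. Csf3r (0.30) and Elane (-0.30) did not pass. The sum was 144 to 172 in sham and 207 to 235 in suspended hearts, but Csf3r made 98.9% of it in sham hearts. Without Csf3r it was 1.62 to 1.99 in sham hearts and 49.6, 8.79 and 17.6 on tail-suspension 1, 2 and 3.

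Of the 6 endothelial markers 3 fell (Kdr, Emcn and Tie1), 50% beside 10.5% of all genes. Pecam1 had a log2 fold change of 0.19 that did not pass. The sum of the 6 was 41.4 to 44.2 in sham and 30.5 to 34.4 in tail-suspended hearts. Fibroblast markers had sums of 254 to 274 and 270 to 334, of which Dcn made 81.2% in sham hearts, and 45.3 to 55.7 and 22.6 to 44.8 without Dcn. None of the 6 passed, and their median log2 fold change was -0.33. Erythroid markers had a sum of 428 to 689 against 106 to 344 with 0 of 4 tested past the threshold, and Epb4.2 was not well above background on any array. Of the lymphocyte markers 2 of 3 tested fell (66.7% beside 10.5%), and Cd3g and Cd8a were not well above background on any array.

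Adipocyte markers had a sum of 0.0764 to 0.385 in sham hearts and of 2.67, 0.252 and 0.377 on tail-suspension 1, 2 and 3, so that only tail-suspension 1 lay above the sham range. Cfd, the only one tested, did not pass, and Lep was not well above background on any array. Tail-suspension 1 was thus the array with the highest sums of adipocyte and neutrophil markers, and it is the only suspended array behind each difference within the first row. Lysosomal genes such as Ctsl are also expressed in macrophages and neutrophils. The part of these cells in the changes of the members was not tested.

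The pathway's other genes were read in the same way from a list of 170 genes around the members, of which 168 were on the array and 161 were tested. Of these, 23 rose and 10 fell, which makes 20.5% beside 21.2% of all genes (14.3% higher beside 10.6%, and 6.21% lower beside 10.5%). Their median log2 fold change was 0.03. The list as a whole passed the threshold about as often as the array did, and Foxo3 and Retreg1 in it had larger fold changes than any member.

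**Figure D4:**
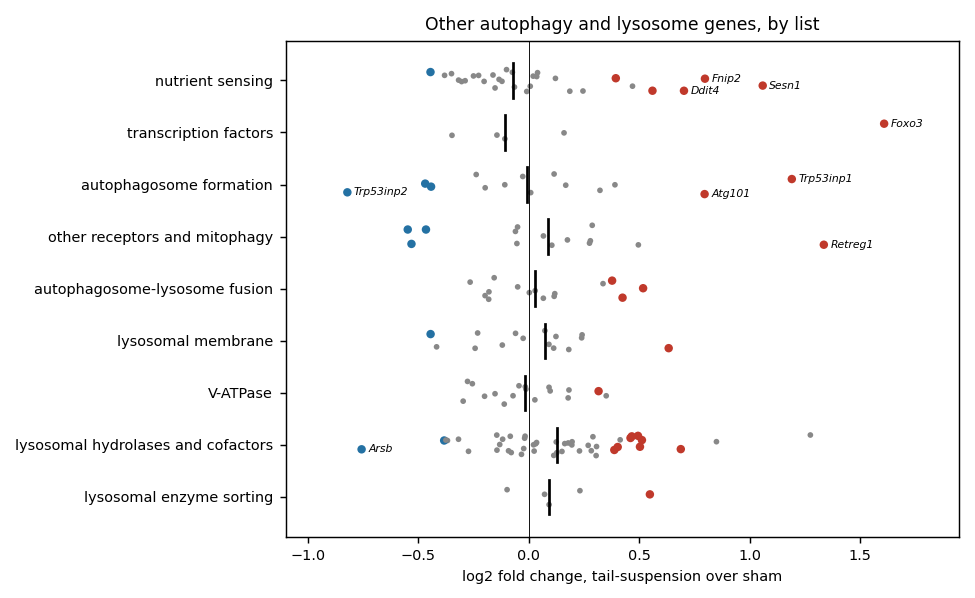
The log2 fold change (horizontal axis) of each tested gene of the 9 further lists, 1 point per gene, in red where higher and in blue where lower past the adjusted threshold, with a bar at the median of each list. Foxo3 lies farthest to the right at 1.61, and Trp53inp2 farthest to the left at -0.82.

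Foxo3, a transcription factor known for driving autophagy and atrophy genes in muscle, had log2 levels of -1.39, -1.75 and -1.75 in sham hearts and 0.08, -0.21 and 0.06 in suspended hearts. It rose 3.05-fold (log2 fold change 1.61, SE 0.14, adjusted p = 0.00236 by limma). Of 5 tested transcription factor genes it alone passed the threshold (20% higher beside 10.6% of all genes). The Foxo3 probe carried a GenBank sequence name, not a RefSeq one, and had intensities of 89.84 to 122.8 in sham hearts. The array's other Foxo3 probe was not among those tested. Retreg1, read under its older name Fam134b, encodes a receptor for autophagy of the endoplasmic reticulum. It went from 3.69, 3.27 and 3.47 to 4.76, 4.91 and 4.78, a 2.52-fold rise (log2 fold change 1.34, SE 0.13, adjusted p = 0.00278). In both genes the sham and suspended arrays were far apart. Within the first row of the slide, where tail-suspension 1 was the only suspended array, the difference was 1.71 for Foxo3 and 1.28 for Retreg1.

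Genes of autophagosome formation moved both ways, with 2 of 14 higher (14.3% beside 10.6% of all genes) and 3 lower (21.4% beside 10.5%). The related genes Trp53inp1 and Trp53inp2, whose products bind ATG8 proteins, went in opposite directions. Trp53inp1 read 0.29, 0.36 and 0.31 in sham and 1.30, 1.39 and 1.85 in tail-suspended hearts, a 2.28-fold rise (log2 fold change 1.19, SE 0.15, adjusted p = 0.00588 by limma). Trp53inp2 read 7.11, 7.29 and 7.13 against 6.45, 6.23 and 6.38 and was 1.77-fold lower (log2 fold change -0.82, SE 0.10, adjusted p = 0.00545). Atg101, read under the name 9430023L20Rik, encodes the partner of ATG13 in the initiation complex and rose 1.74-fold (log2 fold change 0.80, adjusted p = 0.00567). Ei24 and Tmem41b, both genes of endoplasmic reticulum membrane proteins, had log2 fold changes of -0.47 and -0.44.

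Of 30 tested genes of nutrient sensing, 5 rose and 1 fell, 20% beside 21.2% of all genes. Sesn1, whose product restrains the kinase complex mTORC1, had the largest change, from 4.14, 3.72 and 4.03 to 5.04, 4.81 and 5.22 (log2 fold change 1.06, SE 0.15, adjusted p = 0.00813 by limma). Ddit4, another inhibitor of mTORC1, had a log2 fold change of 0.70 (adjusted p = 0.0435). Folliculin (Flcn) and its partner gene Fnip2, which act on lysosomal signalling to mTORC1, had 0.56 and 0.80. The remaining rise was that of Prkag1, a gamma subunit of the energy sensor AMPK, and the fall was that of Prkab2, a beta subunit.

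Of the 14 other receptor and mitophagy genes, 1 rose (Retreg1) and 3 fell (21.4% beside 10.5% of all genes). Those that fell were Ncoa4 (-0.55), the receptor for ferritin, and the mitophagy receptor genes Bcl2l13 (-0.53) and Fundc1 (-0.47). Fundc1 and Bcl2l13 thus differed in direction from the mitophagy receptor gene Bnip3 in the same hearts. Fundc1 was below every sham array on every suspended array, and so was Bcl2l13.

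Lysosomal genes beyond the members passed in shares that differed by list. Of 46 tested hydrolase and cofactor genes, 8 rose and 2 fell, 21.7% beside 21.2% of all genes. The rises make 17.4% beside 10.6%, and the falls 4.35% beside 10.5%. The largest rise past the threshold was Hexa (log2 fold change 0.69, adjusted p = 0.0207 by limma), which encodes a subunit of beta-hexosaminidase, and the others included Ctsh, Dnase2a, Lipa, Fuca1, Grn and Ctso, from 0.50 down to 0.39. Arsb (-0.76, adjusted p = 0.00469) and Galns (-0.38), both genes of sulfatases, fell, and Arsb was well above background on only 1 of 3 tail-suspension arrays. Acp5 had a larger log2 fold change of 1.28 but did not pass (adjusted p = 0.0575). Of 15 membrane genes, Cd63 rose (0.63) and Laptm4b fell (-0.44), 13.3% beside 21.2% of all genes.

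Of 17 tested genes of the V-ATPase, the proton pump that acidifies the lysosome, only Atp6v0e2 rose (0.32) and none fell. That makes 5.88% beside 21.2% of all genes. Of 15 fusion genes, 3 rose (20% beside 10.6% of all genes). They were Vps11 (0.52) and Vps16 (0.42), subunits of the tethering complex HOPS, and Vamp8 (0.38), a SNARE. Of 5 sorting genes, Gnptg (0.55), a subunit of the enzyme that tags lysosomal proteins, rose (20% beside 10.6%). On tail-suspension 1, 2 and 3, Hexa read 4.05, 3.89 and 4.21, and Cd63 read 6.63, 6.28 and 6.79. The part of macrophages and neutrophils in the changes of lysosomal genes was not tested.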

How the data were processed

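The authors deposited the 1-colour scanner output of 6 Agilent arrays, with a processed intensity per spot (Agilent Feature Extraction 10.7.1.1, background corrected), and a table of log2 values deposited for the same arrays, whose sorted columns differed by at most 0.000857, as after quantile normalization. From each log2 processed intensity the log2 of its array's 75th percentile over non-control spots (301.6 to 376.3) was subtracted. Between 146 and 212 outlier spots per array were left out, and spots of a probe were averaged. Between 50.9% and 53.4% of probes per array were well above background, none was saturated, and 28032 of 55681 probes were tested (well above background, in at least 50% of spots, on every array of a group) with limma 3.58.1 (lmFit and eBayes, R 4.3.3) and Benjamini-Hochberg adjustment. The number of arrays limits the precision. The steps were tested on simulated data. Per-array values are given for members past the threshold and for Tfeb, the LC3, cathepsin, Lamp, Becn1, Ulk1, Pink1 and Park2 genes, and for the largest changes of further lists. Optn and Bnip3l were added after their values were seen, as were the per-array values of the differing probes. The members and lists were chosen with earlier results of these data known. Older names (Tcfeb for Tfeb, 5 others) were matched through RefSeq synonyms. Alternatives covered background, scaling, filter, outliers, variance model, test, blocks, choice of probe, fold minimum and each array left out. A few items are not reported here.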

Additional observations from a re-analysis of the deposited data

How the results depend on the processing

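The counts of members past the threshold were 7 higher and 3 lower. Both stayed within 1.5 times of this with normexp background correction, quantile normalization, another percentile, the authors' log2 values, outlier spots kept, the stricter filter, the mean of all probes and an intensity trend. Without a filter on dim probes 3 were higher and 0 lower (10 and 3 unadjusted, by limma). Over all probes this fit called 1041 higher and 790 lower of 55681, beside 3023 and 2683 of 28032 in the main fit. With array weights 11 were higher, beside 4462 higher and 4352 lower of 28003 probes. The methods' t-test called 12 higher unadjusted, and 4 higher and 0 lower after Benjamini-Hochberg. Over all 28032 probes it called 4810 higher and 4696 lower unadjusted, and 1532 and 1248 after adjustment. Read from the second brightest probe, 2 were higher (Bnip3 and Lamp2) and 1 lower (Wipi1) of 16. With a 2-fold minimum 1 was higher (Bnip3) and 0 lower. With slide row as a block, 0 members passed in either direction (6 higher and 2 lower unadjusted). That block left 320 probes higher and 177 lower of 28032. With the replicate block, 5 were higher and 0 lower (4 lower unadjusted), although same-numbered arrays did not deviate together (correlations -0.01998, -0.01757 and 0.04952). The replicate block left 1714 probes higher and 1403 lower of 28032. Leaving out 1 array gave 2 to 8 members higher and 0 to 1 lower, beside 965 to 2932 probes higher and 726 to 2580 lower. The 2 were Bnip3 and Gabarapl1, without sham replicate 2, and these were the members that rose in all 6 such fits. Without sham replicate 1 or tail-suspension replicate 3 there were 4. Atg5 still passed only without sham replicate 3 and Wipi1 only without tail-suspension replicate 2, and Atg4c passed in none of the 6. For the further genes, 23 higher and 10 lower, the counts were 7 and 2 without a filter, 11 and 6 by the adjusted t-test, 9 and 3 with the replicate block, 3 and 0 with the row block (10 lower unadjusted), 4 and 2 by the second probe, and 4 and 0 with a 2-fold minimum. Array weights gave 18 lower and the unadjusted t-test 20 lower. Leaving out 1 array gave 7 to 21 higher and 2 to 11 lower. The causes were not tested.

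Unadjusted here means an unadjusted p under 0.05. Members past the threshold kept their direction in all of these but 1, as the mean of all probes of Gabarap was -0.002319. With the row block or an array left out this follows from groups that do not overlap. The other reversals were of small log2 fold changes short of the threshold. With the row block these were Ambra1 (-0.007261), Becn1 (0.0176), Bnip3l (-0.01471), Pik3r4 (-0.01363) and Pink1 (-0.07221). With quantile normalization and with the authors' log2 values they were Lamp1 (-0.07897 and -0.05798) and Pink1 (-0.02592 and -0.02273), and with normexp Gabarapl2 (0.01327). By the second probe they were Park2 (-0.0668) and Rb1cc1 (0.1605), and by the mean of its probes Rb1cc1 (0.01999). With each array left out in turn, values on both sides of 0 were found for Atg4b (-0.08089 to 0.02018), Gabarapl2 (-0.1407 to 0.006007), Lamp1 (-0.0396 to 0.1551), Pik3r4 (-0.009309 to 0.02805) and Pink1 (-0.03243 to 0.1294). A block for slide or scan was not run, since all arrays shared both.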
